A study of Mus musculus with 2 samples.

Results

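The tumour necrosis factor (TNF) ligands and their receptors were compared between control mouse heart and heart from mice with the WRN-K577M transgene. The genes were taken as those whose symbol begins with Tnfrsf or Tnfsf, together with Tnf, Lta, Ltb and Ltbr, and they were read by 45 of the 28330 probes that a RefSeq accession names. These are 35 of the 21368 genes with such a probe: 21 receptor genes, 13 ligand genes and Tnfsfm13, a readthrough of adjacent ligand genes. Tnfsf13, which encodes APRIL, and the antisense RNA Tnfsf13os fit the rule but no probe was matched to either here. The rule uses gene symbols alone and no measured value, but it was chosen with earlier results of these data known.

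Total RNA of heart from 2 samples was hybridised to 1-colour Agilent arrays, 1 array for each genotype. The control had the C57BL6 background with no transgene named. The other sample had the same background and carried, in a B6.Cg strain, the transgene Tg (CAG-WRN*K577M) 5025Wcl/Mmmh, an altered form of the WRN helicase under the broadly active CAG promoter, and is called the transgenic heart below. The comparison asks which signalling accompanies cardiac remodelling in this line. Age, sex, the number of hearts behind a sample and the meaning of the letters ND in the titles are not given in the sources used here. With 1 array per group no test between the genotypes could be made, and every ratio below describes these arrays.

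TNF superfamily ligands are mostly trimeric membrane proteins, some of them shed as soluble cytokines. Their receptors either carry a death domain and can start apoptosis or necroptosis, or bind TRAF adaptors and switch on NF-kB and MAP kinases, and decoy receptors bind ligand without signalling. In the heart the family is known for TNF and its receptors TNFR1 and TNFR2 in heart failure, and for TWEAK and its receptor Fn14 in growth and remodelling of cardiomyocytes. Many other members are lymphocyte co-stimulators.

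The promoter windows of 3 members are shown because the largest ratio belonged to Tnfrsf12a and because Tnf and Ltb are neighbouring genes that were both lower in the transgenic heart. Each window runs from 250 bases before to 50 bases after the RefSeq transcript start of the GRCm38.p6 build, 5′ to 3′ on the strand of the gene. They are chr17:23677400-23677699 on the minus strand for Tnfrsf12a, chr17:35201958-35202257 on the minus strand for Tnf and chr17:35194257-35194556 on the plus strand for Ltb. Capitals mark matches on either strand to the motifs given after the sequences.
Tnfrsf12a: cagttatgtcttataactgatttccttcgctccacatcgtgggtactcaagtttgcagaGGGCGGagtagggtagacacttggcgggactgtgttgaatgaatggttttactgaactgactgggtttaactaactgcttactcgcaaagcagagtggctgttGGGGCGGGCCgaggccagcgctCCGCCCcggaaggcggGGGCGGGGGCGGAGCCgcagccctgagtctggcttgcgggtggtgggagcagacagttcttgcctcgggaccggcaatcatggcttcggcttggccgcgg
Tnf: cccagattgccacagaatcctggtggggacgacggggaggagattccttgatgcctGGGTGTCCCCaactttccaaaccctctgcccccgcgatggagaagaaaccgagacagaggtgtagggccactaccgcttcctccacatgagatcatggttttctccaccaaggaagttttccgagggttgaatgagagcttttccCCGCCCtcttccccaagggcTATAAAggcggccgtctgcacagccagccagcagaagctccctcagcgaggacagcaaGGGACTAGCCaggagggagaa
Ltb: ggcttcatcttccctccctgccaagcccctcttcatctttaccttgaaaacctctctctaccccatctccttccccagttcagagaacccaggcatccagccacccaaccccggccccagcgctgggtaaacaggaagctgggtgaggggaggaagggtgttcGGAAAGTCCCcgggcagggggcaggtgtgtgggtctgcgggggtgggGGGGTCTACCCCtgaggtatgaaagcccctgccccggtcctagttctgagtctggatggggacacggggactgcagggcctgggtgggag

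The letters searched on both strands were GGG and CC with any 5 bases between them, a loose NF-kB site present in 50.4% of 27025 promoter windows, TGANTCA for AP-1 (7.93%), TATAAA for the TATA box (14.2%) and GGGCGG for the GC box (35.9%). The Tnfrsf12a window held 5 GC boxes and no TATAAA, and its 2 matches to the NF-kB letters lie over GC boxes. The Tnf window held TATAAA 29 bases before the start, 1 GC box and 3 matches to the NF-kB letters that cover 2 stretches. The Ltb window held 5 matches to the NF-kB letters in 2 stretches and neither a GC box nor TATAAA. None of the 3 held TGANTCA. Of the 28 members with a window in the table, 16 (57.1%) held the NF-kB letters and 13 (46.4%) a GC box. Of the 18 members measured on both arrays that have a window, 5 (27.8%) had an observed-to-expected CpG ratio of at least 0.6, against 36.5% of all windows, Tnfrsf12a among them with 0.782. A match is a description of the letters and not a bound site.

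A level is the log2 processed signal minus the 75th percentile of the array, and the log2 ratio subtracts the control level from the transgenic one. A gene is called measured when a probe was well above background on both arrays, which held for 14003 genes (65.5%). The lowest level of a probe well above background was -4.73 in the control and -4.42 in the transgenic heart. All 8 ventricular markers were measured on both arrays. Lung epithelial markers were present in the control heart and nearly absent from the other, with a summed signal of 136 against 0.506 in units of the 75th percentile and 6 of 10 above background in the control only. Of the other lung markers, 2 were measured on both arrays, each at least 2-fold lower, and Epcam and Scgb3a2 were above background on neither. All 6 measured atrial markers were at least 2-fold lower, with log2 ratios of -9.41 for Sln, -7.39 for Myl7 and -7.12 for Myl4. Nppa, at levels of 8.32 and 7.26, differed least among them (-1.06). Fgf12 passed background on the control array alone, with a bound of 14.6-fold, and Bmp10 on neither. The summed atrial signal was 656 in the control and 157 in the transgenic heart. Of 10 fibroblast markers, 7 were at least 2-fold lower, the lowest ratio being -2.29. Of 6 measured adipocyte markers 5 were at least 2-fold lower, and Plin1 and Ucp1 were above background in the control only. The summed adipocyte signal of 162 in the control and 197 in the other heart was mostly that of Fabp4, the one with a ratio above 0 (0.53). In RNA of whole tissue, fewer cells of a type and less RNA per cell cannot be told apart. Nor, with 1 array per genotype, can a difference in the tissue that was sampled be told apart from one of genotype. This holds for every ratio below.

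Of the 35 members, 22 (62.9%) were measured on both arrays, a share near the 65.5% of all genes. Another 3 were well above background in the control only (Tnf, Tnfrsf13c and Tnfrsf18, where 3.46% of all genes were), 1 in the transgenic heart only (Tnfrsf26, against 0.978%), and 9 in neither (against 30.0%). Measurement was commoner among receptors, 15 of 21, than among ligands, 7 of 14. Among the 22 measured members, 1 was at least 2-fold higher in the transgenic heart, where 1.94% of all measured genes were, and none at least 2-fold lower, where 3.46% were. The ratio of 18 members (81.8%) lay within 1.5-fold, beside 84.1% of all measured genes. The median log2 ratio was -0.01 over the members and 0.02 over all measured genes, with 0.11 for the 15 receptors and -0.13 for the 7 ligands.

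**Figure D1:**
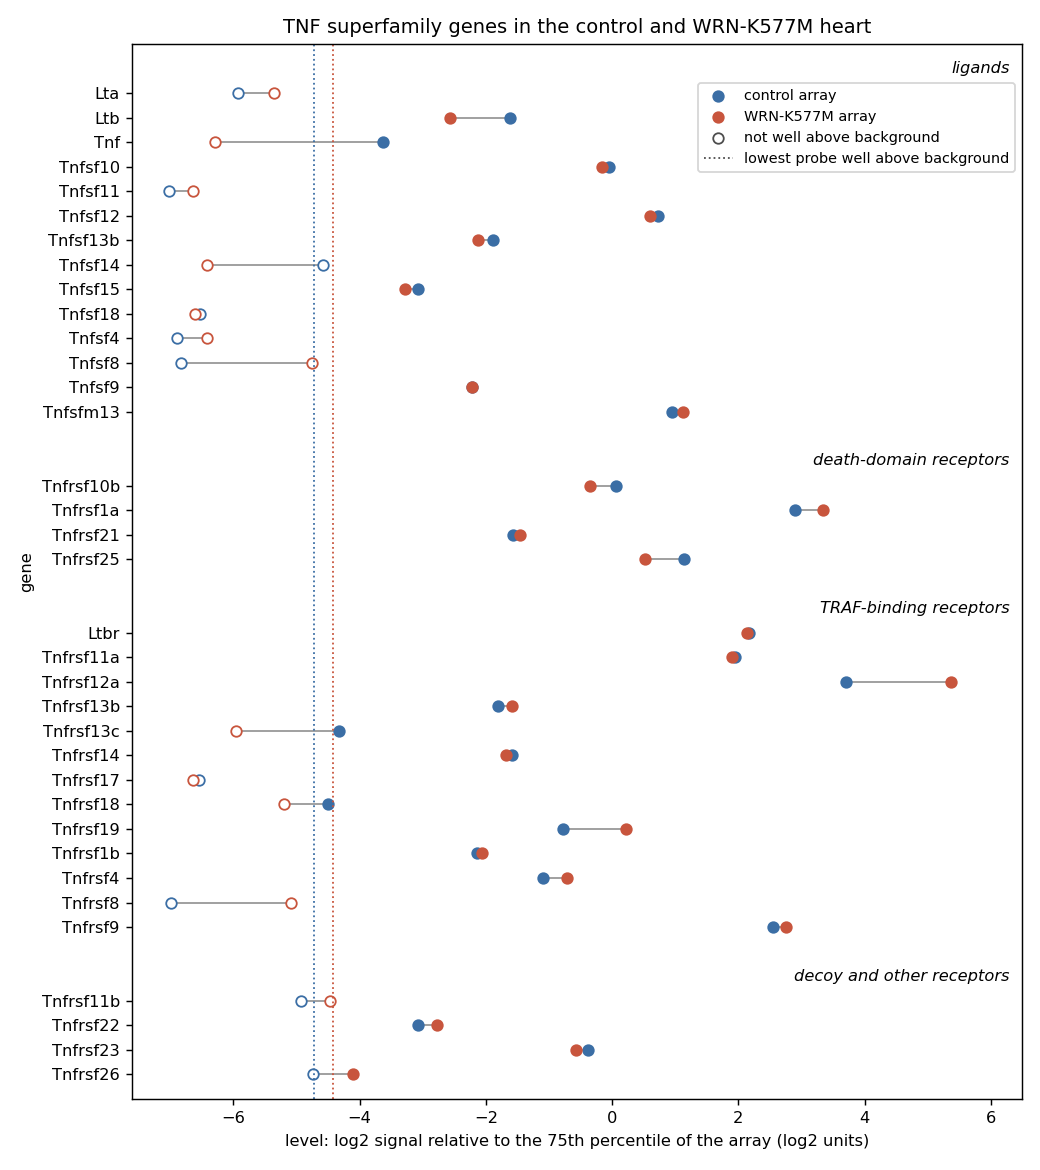
Levels of the 35 genes on the control (blue) and WRN-K577M (red) array in log2 units above the 75th percentile, grouped by role. Open circles are probes not well above background, dotted lines the lowest probe well above background on each array, and each point is 1 array. Tnfrsf12a moves from 3.70 to 5.37, while most measured members have overlapping or adjacent points.

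Tnfrsf12a encodes Fn14, the small receptor of TWEAK that is induced by growth factors and injury. Control heart gave a level of 3.70 and transgenic heart 5.37, a log2 ratio of 1.67 (3.17-fold). A software error of that log2 ratio, combined here from the software's signal errors on both arrays, was 0.20. It was the same for other bright members such as Ltbr and Tnfrsf1a. Of all measured genes, 99.6% had a lower ratio than Tnfrsf12a. Over all 9 alternative ways of processing, the ratio lay between 1.59 and 1.67, and it was the sole measured member past 3-fold. Tnfrsf12a was read by 1 probe at a single spot. Among 90 probes printed at least 5 times with a control level of 2 or more, the log2 ratio varied between spots with a median SD of 0.050 and at most 0.175.

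Its ligand TWEAK, encoded by Tnfsf12 and made by leukocytes among other cells, stood at 0.72 in control and 0.60 in transgenic heart (log2 ratio -0.13). A dimmer Tnfsf12 probe gave a ratio of 0.09. The receptor was therefore higher in the transgenic heart while the probes of its ligand lay near equal on either side of 0. The readthrough Tnfsfm13, which joins the TWEAK and APRIL genes, gave 0.16 with its brighter probe and -0.08 with the other. Whether its probes also read the Tnfsf12 or Tnfsf13 message was not tested.

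**Figure D2:**
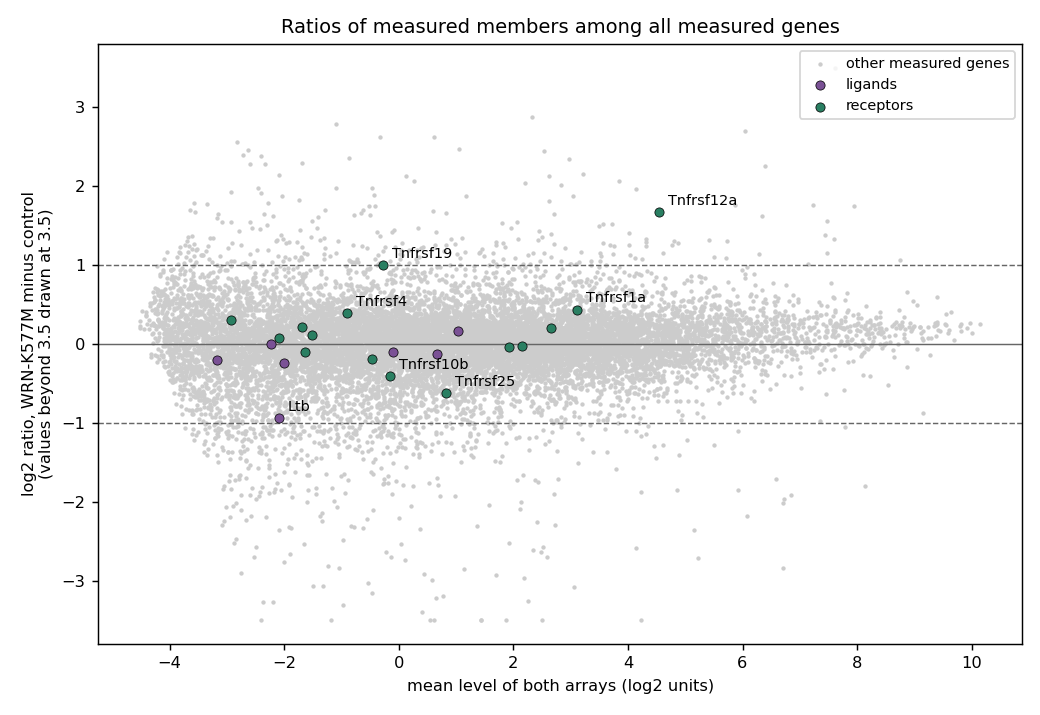
Log2 ratio (transgenic minus control) against the mean level of both arrays for the 14003 measured genes, with 7 ligands in purple and 15 receptors in green. Dashed lines mark 2-fold, and each point is 1 gene on 1 pair of arrays. Tnfrsf12a stands at 1.67, Tnfrsf19 and Ltb lie just inside the 2-fold lines, and the other members lie within the bulk of the grey points.

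Tnf, the founding cytokine of the family, was printed at 10 spots on each array. The spots gave a lowest level of -3.95, a median of -3.63 and a highest of -3.35 in the control. In the transgenic heart the lowest was -6.64, the median -6.41 and the highest -4.73. All 10 control spots and none of the 10 transgenic spots were well above background, and the spots of the 2 arrays did not overlap. A single transgenic spot stood at -4.73, with the next at -6.30. Since the transgenic value is only a bound, Tnf was at least 1.73-fold lower there, from the mean of the control spots (-3.63 ± 0.21, SD over 10 spots of 1 array). After normexp background correction the log2 of the bound was 0.09 rather than 0.79.

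The receptors of TNF did not share that direction. Tnfrsf1a, which encodes the death-domain receptor TNFR1 found on nearly all cells, was also printed at 10 spots. Its control spots had a lowest level of 2.81, a median of 2.90 and a highest of 2.998. Its transgenic spots had a lowest level of 3.26, a median of 3.32 and a highest of 3.44, so every transgenic spot lay above every control spot. The log2 ratio was 0.44 ± 0.044 (SD over 10 spots of 1 array pair, 1.35-fold), and a second probe at 1 spot gave 0.32. The difference is larger than the spread between spots, which covers measurement only and not the spread between hearts. A lower ratio than that of Tnfrsf1a was found for 88.4% of all measured genes. How many other probes printed at several spots had spots without overlap was not counted. Tnfrsf1b, which encodes the TRAF-binding receptor TNFR2 of leukocytes and endothelium, stood at -2.14 in control and -2.06 in transgenic heart, a log2 ratio of 0.08.

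**Figure D3:**
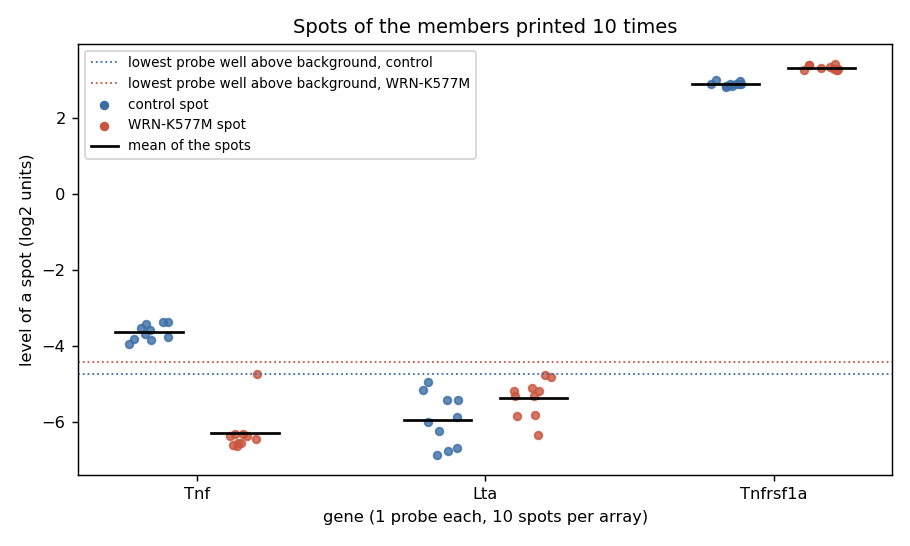
Level of each of the 10 spots of Tnf, Lta and Tnfrsf1a on the control (blue) and WRN-K577M (red) array in log2 units, with the mean of the spots as a black bar and the lowest probe well above background on each array as dotted lines. Spots are repeats of 1 hybridisation. The spots do not overlap for Tnf, where the control is higher, or for Tnfrsf1a, where the WRN-K577M array is higher, and they overlap for Lta, all of whose spots were not well above background.

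The lymphotoxin genes flank Tnf in the genome. Ltb, which encodes the membrane anchor of lymphotoxin and is made by lymphocytes, stood at -1.62 in control and -2.57 in transgenic heart, a log2 ratio of -0.94 (1.92-fold) with a software error of 0.22. That was the lowest ratio among the measured members, and 3.88% of all measured genes had a lower one. After normexp the ratio was -0.29. Lta, lymphotoxin alpha, was not well above background at any of its 10 spots on either array, with a median of -5.93 in the control and -5.25 in the transgenic heart. Their receptor gene Ltbr, needed for lymph node formation and expressed outside lymphocytes, was near equal, with levels of 2.17 and 2.14.

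Most measured macrophage and lymphocyte markers were lower in the same heart as Tnf and Ltb. Of all 14003 measured genes, 6668 had a ratio below 0 and 3.46% were at least 2-fold lower. Of the 12 measured macrophage markers, 11 had a ratio below 0 and 6 were at least 2-fold lower, Ccr2 by a log2 ratio of -1.40, with a summed signal of 99.8 in the control and 92.1 in the transgenic heart. Most of that sum was Itgam, the macrophage marker with a ratio above 0 (0.24). Of the 6 measured T and NK cell markers, 5 were below 0 and 2 at least 2-fold lower, among them Gzma (-1.38), with sums of 7.44 and 6.87, and Cd8a, Klrb1c and Ncr1 were above background on neither array. Of the 4 measured B and plasma cell markers, 3 were below 0 and Mzb1 was at least 2-fold lower (-1.01), with sums of 2.25 and 1.96, Cd79a and Pax5 being above background on neither array. The median log2 ratio of the T and NK cell list was -0.53, against -0.07 after normexp and -0.0045 with the stricter filter on dim probes, and that of the B and plasma cell list was -0.48, against -0.06 after normexp and -0.25 with the stricter filter. Among neutrophil markers, S100a8 and S100a9 each had a ratio of -4.98, and Retnlg, Mmp8 and Cxcr2 passed background on the control array alone, with bounds of at least 30.0-fold, 4.89-fold and 3.25-fold lower on the other. Camp had a ratio of -0.41, while Csf3r (0.21) and Lcn2 (0.20) lay above 0, Ngp was above background on neither array, and the summed signal of 232 and 221 was mostly Csf3r. Of 5 measured dendritic cell markers, 4 were below 0 and 2 at least 2-fold lower. Their median ratio of -0.50 was -0.08 after normexp and 0.08 with the stricter filter. Their sums of 119 and 125 were nearly all Siglech (0.08), and Clec9a and Xcr1 were above background on neither array. All 4 measured mast cell markers had ratios above 0, and Cpa3 was at least 2-fold higher (1.64), where 1.94% of all measured genes were. Their median ratio was 0.57, against 0.31 after normexp and 0.40 with the stricter filter. The sums were 1.09 and 1.69, and Fcer1a was above background on neither array. The 3 measured regulatory T cell markers also had ratios above 0. Foxp3, which defines these cells, was however above background in the control only and at least 1.20-fold lower in the transgenic heart. The log2 of that bound, 0.26, was near the median SD of a log2 ratio between spots, 0.22 at control levels below -2. The part of the cells of all these lists in the levels of Tnf and Ltb was not tested.

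Tnfrsf19, which encodes TROY, a receptor of neural and epithelial progenitor cells, was the member nearest to Tnfrsf12a in ratio. Control heart gave a level of -0.78 and transgenic heart 0.22, a log2 ratio of 0.99 (1.99-fold) with a software error of 0.21. A second, dimmer probe went from -3.67 to -2.82, a ratio of 0.85. Both probes were higher in the transgenic heart, and 98.0% of measured genes had a lower ratio. After normexp the ratio was 0.69.

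All 4 death-domain receptors named by the rule were measured, 2 of them higher and 2 lower in the transgenic heart. Besides Tnfrsf1a, Tnfrsf21, the gene of death receptor DR6, was near equal, with levels of -1.57 and -1.46. Tnfrsf25, the gene of DR3, a death-domain receptor found on T cells, stood at 1.14 in control and 0.51 in transgenic heart, a log2 ratio of -0.63 (1.55-fold). It was the lowest ratio among the measured receptors and stayed between -0.67 and -0.50 over the alternatives. Its ligand TL1A, encoded by Tnfsf15 and made by endothelial and myeloid cells, was dim and near equal, with levels of -3.08 and -3.28, and its ratio turned to 0.10 after normexp.

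Tnfrsf10b, the mouse receptor of the death ligand TRAIL, stood at 0.06 in control and -0.35 in transgenic heart (log2 ratio -0.41). Tnfsf10, which encodes TRAIL, was near equal, with levels of -0.06 and -0.16. The mouse TRAIL decoy receptors lie side by side in the genome with Tnfrsf26. Of them, Tnfrsf22 had levels of -3.08 and -2.78 (ratio 0.30) and Tnfrsf23 of -0.38 and -0.57 (ratio -0.19). A second probe of each was above background on neither array. Tnfrsf26 reached the background threshold on the transgenic array alone, at -4.11 against -4.74, which makes it at least 1.54-fold higher there. The log2 of that bound was 0.62, against 0.31 after normexp and 0.42 after cyclic loess. As these genes arose by duplication, cross-hybridisation between them was not tested. The 3 neighbours did not share a direction.

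Of the co-stimulatory receptors of T cells and their ligands, several were not well above background. Tnfrsf4, the gene of OX40 on activated T cells, lay at -1.10 in control and -0.71 in transgenic heart (ratio 0.39), and its ligand gene Tnfsf4 was above background on neither array. Tnfrsf9, the gene of 4-1BB, had levels of 2.55 and 2.75 (ratio 0.20) by its brighter probe, while its other probe, on the same transcript accession, was above background on neither array. Its ligand gene Tnfsf9 was at -2.22 and -2.23. Tnfrsf14, the gene of the lymphocyte regulator HVEM, was at -1.58 and -1.69, and its ligand gene Tnfsf14, encoding LIGHT, was above background on neither array. Tnfrsf18, the gene of GITR on regulatory T cells, was just above background in the control only, at -4.50 against -5.20, and gives no fold. Tnfsf18, Tnfrsf8 (CD30) and its ligand gene Tnfsf8 were above background on neither array. The measured genes of this group, Tnfrsf4, Tnfrsf9, Tnfsf9 and Tnfrsf14, all lay within 1.5-fold, as did 84.1% of all measured genes.

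Among the genes of B cell survival, Tnfsf13b, which encodes the myeloid cytokine BAFF, lay at -1.89 in control and -2.13 in transgenic heart (ratio -0.24). The probes of its receptor gene Tnfrsf13b, encoding TACI, disagreed, with a ratio of 0.21 for the brighter and -0.35 for the dimmer. Tnfrsf13c, the gene of the BAFF receptor, passed background on the control array alone and was at least 1.07-fold lower on the other, though after normexp its bound no longer gave a fold, and Tnfrsf17, the gene of the plasma cell receptor BCMA, on neither array. Of the bone resorption system, the receptor gene Tnfrsf11a, encoding RANK, was near equal, with levels of 1.94 and 1.90. Its ligand gene Tnfsf11 (RANKL) and the decoy receptor gene Tnfrsf11b (osteoprotegerin) were above background on neither array.

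Set out as 23 known pairs of ligand and receptor, 8 pairs had both genes measured on both arrays and 9 had the receptor measured without the ligand, 1 of them with Tnfsf13, for which no probe was matched. In 2 pairs the ligand alone was measured and in 4 neither was. TWEAK with Fn14, lymphotoxin beta with its receptor, TRAIL with its 3 receptors, BAFF with TACI, TL1A with DR3 and 4-1BB with its ligand make up the complete pairs. TNF with either of its receptors is not among them, because Tnf was above background in the control only.

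Outside the naming rule, 11 further superfamily genes carry other symbols, and 5 of these were measured, none with a 2-fold difference. Fas, the death receptor of the Fas ligand, had levels of 2.36 and 3.23 (log2 ratio 0.87), Eda, ectodysplasin, a ratio of -0.50, Relt of -0.36, Cd40 of -0.31 and Ngfr, the p75 neurotrophin receptor, of 0.11. Fasl, Cd27, Cd70, Cd40lg, Edar and Eda2r were above background on neither array. Of the 9 genes that shed or process these ligands, 7 had a ratio below 0, beside 6668 of all 14003 measured genes, and none was 2-fold different. Their median log2 ratio was -0.08, and 8 (88.9%) lay within 1.5-fold, beside 84.1% of all measured genes. Adam17, the TNF-converting protease, had a ratio of -0.65, its partner Rhbdf2 of -0.52 and its inhibitor Timp3 of 0.54.

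Among 30 measured genes of receptor adaptors and death signalling, 28 lay within 1.5-fold and the median log2 ratio was 0.03. The exceptions were Traf1, an adaptor that NF-kB induces (-1.40), which was at least 2-fold lower, and Otulin, a deubiquitinase that trims linear ubiquitin chains (1.26), at least 2-fold higher. Traf3 (-0.58), Cyld (0.53) and Casp8 (-0.46) followed. Of 14 measured NF-kB subunits, inhibitors and kinases, 7 lay above 0 and 7 below, with a median of -0.02. Nfkbiz, an inducible nuclear regulator, was the sole one at least 2-fold lower (-1.23), while Nfkbid had a ratio of -0.86, Ikbkg of 0.67, Nfkbie of -0.61 and Relb of -0.48.

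Genes that TNF and NF-kB induce were lower more often than higher. Of 23 measured targets, 15 had a ratio below 0, beside 6668 of all 14003 measured genes. At least 2-fold lower were 7, where 3.46% of all measured genes were, and none was at least 2-fold higher. The median was -0.43, beside 0.02 over all measured genes. The 5 lowest were the cytokine Il6 (-1.62), the adhesion molecules Icam1 (-1.34) and Vcam1 (-1.26), the neutrophil chemokine Cxcl1 (-1.27) and Ptgs2, inducible cyclooxygenase (-1.24). Tnfaip3, the feedback deubiquitinase A20, stood at -1.17. Several targets lay on the other side of 0, among them the chemokine Ccl2 (0.37). Il1b, the cytokine interleukin 1 beta, was above background in the control only and at least 9.86-fold lower in the transgenic heart. After normexp 2 rather than 7 targets were at least 2-fold lower. Most macrophage and lung epithelial markers were lower in the same heart. Of the neutrophil markers, with the values given above, S100a8, S100a9, Retnlg, Mmp8, Cxcr2 and Camp were also lower. Csf3r and Lcn2, itself a listed target, lay above 0, and Ngp was above background on neither array. The part of all these cells in the levels of the targets was not tested.

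**Figure D4:**
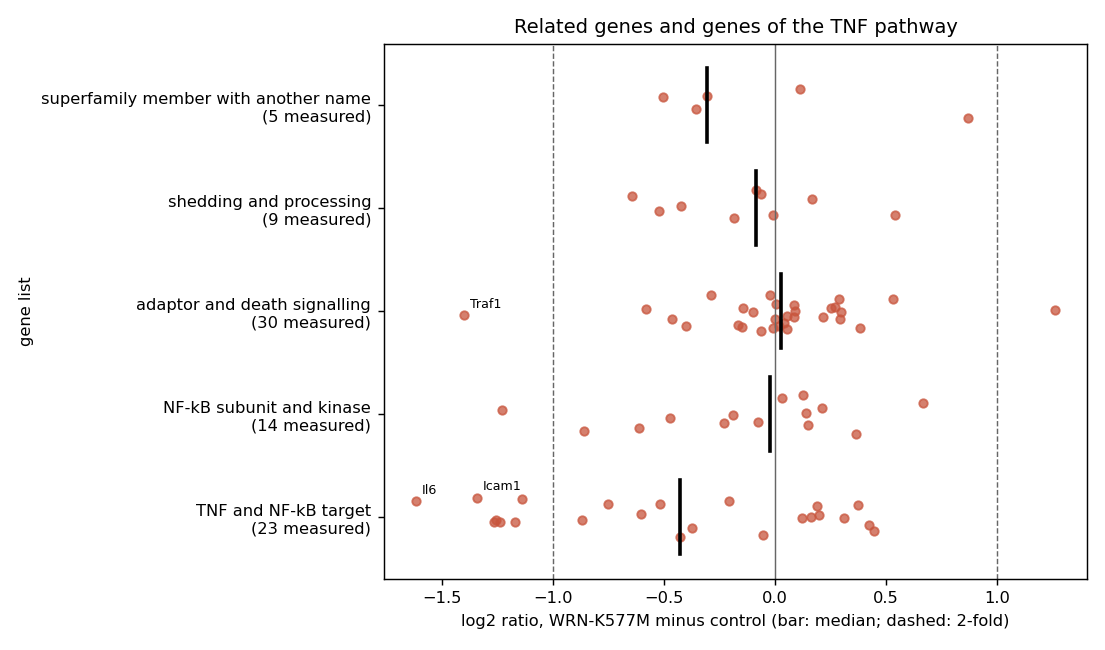
Log2 ratio (transgenic minus control) of each measured gene in 5 lists around the TNF superfamily, with the list median as a black bar and 2-fold as dashed lines; each point is 1 gene on 1 pair of arrays and its height within a list has no meaning. The medians run from -0.43 for the TNF and NF-kB targets, 7 of which lie beyond 2-fold lower, to 0.03 for the adaptor and death signalling genes.

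Tnfrsf12a and Tnfrsf19 are expressed outside the immune system, and markers of other heart cells did not all move their way. Of 8 ventricular markers 7 were above 0, beside 7335 of all 14003 measured genes, with a median of 0.18. That median was -0.0033 after quantile normalization and 0.00016 after cyclic loess. Of 10 endothelial markers 5 were above 0 with a median of -0.0023, and of 10 fibroblast markers 9 were below 0 with a median of -1.62. Of 6 smooth muscle markers 5 were below 0 and 2 at least 2-fold lower. Their median ratio was -0.93, while Acta2, smooth muscle actin, had a ratio of 0.85. The summed signals were 3550 and 4084 for ventricular, 163 and 146 for endothelial, 304 and 221 for fibroblast and 123 and 101 for smooth muscle markers in the control and the transgenic heart. Their part in the ratios of both receptors was not tested.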

How the data were processed

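Agilent spot files of 2 arrays, which shared a slide and a scan per the file headers, hold intensity values from Agilent Feature Extraction, version 11.5.1.1 by the submitters' processing notes. The processed signal is an intensity corrected for background and spatial trend, which the authors deposited without scaling between arrays, as the file headers record, and other columns hold flags. The deposited value table is the same intensity times 4.12 (control) or 4.86 (WRN-K577M), linear and not centred, with column medians of 79.5 and 79.0, and the sources used here do not say how the authors chose the factors.

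Control spots, and 257 spots that were outliers on either array, were left out, and no spot was saturated. Levels are log2 intensity minus the 75th percentile over non-control spots (256 and 210), spots of a probe were averaged, and a probe counted as well above background when most of its spots were. Deposited accessions were matched without versions to RefSeq of GRCm38.p6 for names only: 22544 of 23871 matched. A gene took its brightest measured probe. A gene above background on 1 array only has a bound, its level there against the dim array's own value or that array's lowest probe well above background, whichever is higher. Counts use a 2-fold threshold. The members, gene lists and alternatives were chosen with earlier results of these data known. All members are named; of each list up to 5 pathway genes, up to 3 markers and any non-prefixed superfamily gene, by largest absolute ratio, some added after their values were seen. Alternatives were normexp with an offset of 50 on the raw median intensity, quantile and cyclic loess normalization, other percentiles, other filters on dim probes, the mean of probes and the deposited table. The scripts were tested on simulated data. Versions were Python 3.11.15 with numpy 2.4.6, pandas 2.3.3 and matplotlib 3.10.9, and R 4.3.3 with limma 3.58.1.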

Additional observations from a re-analysis of the deposited data

How the results depend on the processing

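Tnfrsf12a was at least 2-fold higher and no measured member at least 2-fold lower under all the scalings, normexp, the stricter filter, the mean of probes and the deposited table. At 1.5-fold, 2 members were higher and 2 lower, and without a filter on dim probes 3 were higher (with Tnfrsf8 and Tnfsf8, above background on neither array) and 2 lower (Tnf and Tnfsf14) at 2-fold. The median ratio of ligands was -0.13 and turned to 0.023 after normexp. Of the 22 measured members, 17 kept their sign under all these settings that measured them. The others were Tnfrsf13b, Tnfrsf14, Tnfsf10, Tnfsf15 and Tnfsf9, all with ratios under 1.5-fold. The stricter filter measured 19 members and left out Ltb, Tnfrsf22 and Tnfsf15. Over all genes, 271 were at least 2-fold higher and 484 lower, against 115 and 199 after normexp, 1240 and 1080 without a filter on dim probes and 191 and 304 with the stricter one. The NF-kB list had 1 gene at least 2-fold lower, against 0 after normexp and 2 without a filter, and Traf1 was not 2-fold lower after normexp. No paired analysis was possible because each group holds 1 array. Signal over background limits the dim members: the log2 ratio varied between spots with a median SD of 0.22 at control levels below -2.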

Other observations

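Genes related to the family by structure or by name were looked up after the results above were known. Of the 9 C1qtnf genes, which encode secreted proteins with a globular domain resembling that of TNF, 8 were measured. Of these 8, 3 were above 0, the median log2 ratio was -0.20 and none was at least 2-fold different. The remaining gene, C1qtnf6, passed background on the control array alone and was at least 2.39-fold lower on the other. C1qtnf3 had a ratio of 0.93 with a software error of 0.40. Its control level of -4.44 was near the lowest probe well above background there (-4.73). C1qtnf5, at -0.52 in control and -1.52 in transgenic heart, lay just short of 2-fold. C1qtnf9, a cardioprotective adipokine in mice, lay at 0.44 and 0.75, a ratio of 0.31. In the Tnfaip8 family, whose members bind phosphoinositides, Tnfaip8l1 lay at 0.45 in control and -0.72 in transgenic heart, a ratio of -1.17, and Tnfaip8l2, which is expressed in immune cells, had a ratio of -0.89.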
